A study of Mus musculus with 18 samples.

Results

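The genes described here encode pulmonary surfactant proteins and the machinery that processes, packages and recycles surfactant, and were followed across 6 sorted mouse cell populations. They are 10 of the 27179 genes in the deposited files, chosen by name: the surfactant proteins *Sftpc*, *Sftpb*, *Sftpa1* and *Sftpd*, the lamellar body proteins *Abca3* and *Lamp3*, the phosphate transporter *Slc34a2*, the proteases *Napsa* and *Ctsh*, and the lipid enzyme *Lpcat1*. Each symbol was matched to the Entrez gene number that the files carry, and all 10 passed the filter on low counts. RNA-seq was carried out on 18 libraries, 3 for each population, from untreated male C57BL/6 mice. From the tracheas of mice 1 to 3 came BSCs (basal stem cells, NGFR-positive) and non-basal cells (NGFR-negative). From the lungs of mice 4 to 6 came alveolar cells (EpCAM-positive, CD104lo), airway CD24lo cells (EpCAM-positive, CD104-positive, labelled as enriched in club cells), airway CD24hi cells (the same gate with high CD24, labelled as enriched in ciliated cells) and EpCAM-negative cells (labelled non-epithelial). Lung and trachea came from different mice, so organ and animal cannot be told apart from cell type between them, and the libraries of a group are separate mice.

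Pulmonary surfactant is a film of phospholipid and protein that lowers surface tension at the air-liquid interface and keeps alveoli open. Alveolar type 2 cells make most of it: SP-B and SP-C, small hydrophobic proteins that spread the lipid, are cut from larger precursors on the way to lamellar bodies, the storage organelles into which ABCA3 pumps phospholipid. SP-A and SP-D are collectins, secreted lectins of innate defence, and are known from airway epithelium and submucosal glands as well as from type 2 cells.

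In the GRCm38 (mm10) mouse genome the 2 collectin genes are neighbours on chromosome 14, with *Sftpa1* at chr14:41131788-41136373 on the plus strand and *Sftpd* at chr14:41172212-41185198 on the minus strand. *Sftpc* is on the same chromosome at chr14:70520941-70524081, minus strand. The other genes lie apart, at chr6:72304610-72314373 (*Sftpb*, plus), chr17:24351921-24410204 (*Abca3*, plus), chr16:19653381-19706365 (*Lamp3*, minus), chr5:53049353-53071664 (*Slc34a2*, plus), chr7:44572445-44586846 (*Napsa*, plus), chr13:73467231-73516420 (*Lpcat1*, plus) and chr9:90054267-90076095 (*Ctsh*, plus). Part of the exonic sequence of *Napsa* (18.87%) is shared with Gm15396 on the opposite strand, and 9.75% of that of *Abca3* with D330041H03Rik. The counting of strand is not given in the sources used here, so reads in those stretches cannot be told apart.

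RefSeq promoter sequences of the GRCm38.p6 build were at hand for 6 of the 10 genes (*Sftpb*, *Sftpa1*, *Abca3*, *Lamp3*, *Slc34a2* and *Lpcat1*). The 250 bases before the start are printed 5′ to 3′ for the 4 whose groups are set against each other below, since *Sftpb* and *Sftpa1* differed in where they were found outside the alveolar gate, *Lamp3* was near the limit of detection in trachea and *Slc34a2* separated the tracheal populations. Capitals mark matches, on either strand, to the letters CTCAAG (the core bound by NKX2-1), TTGCNNAA (paired C/EBP half-sites), TGTTTNC (bound by FOXA factors) and TATAAA.
*Sftpb*, chr6:72304360-72304609, plus strand: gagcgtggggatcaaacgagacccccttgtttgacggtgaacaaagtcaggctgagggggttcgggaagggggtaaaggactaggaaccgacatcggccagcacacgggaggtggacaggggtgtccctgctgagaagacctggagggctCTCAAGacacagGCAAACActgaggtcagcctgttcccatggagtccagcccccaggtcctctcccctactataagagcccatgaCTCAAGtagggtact
*Sftpa1*, chr14:41131538-41131787, plus strand: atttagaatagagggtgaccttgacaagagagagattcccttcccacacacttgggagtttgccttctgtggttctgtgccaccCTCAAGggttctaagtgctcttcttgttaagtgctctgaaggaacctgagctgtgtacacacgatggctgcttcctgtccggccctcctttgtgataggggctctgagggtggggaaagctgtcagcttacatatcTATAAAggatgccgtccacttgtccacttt
*Lamp3*, chr16:19706366-19706615, minus strand: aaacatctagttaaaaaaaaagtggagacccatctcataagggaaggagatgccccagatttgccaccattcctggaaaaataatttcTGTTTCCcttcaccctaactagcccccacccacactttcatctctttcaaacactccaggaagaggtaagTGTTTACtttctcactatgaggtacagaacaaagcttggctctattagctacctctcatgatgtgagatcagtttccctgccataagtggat
*Slc34a2*, chr5:53049103-53049352, plus strand: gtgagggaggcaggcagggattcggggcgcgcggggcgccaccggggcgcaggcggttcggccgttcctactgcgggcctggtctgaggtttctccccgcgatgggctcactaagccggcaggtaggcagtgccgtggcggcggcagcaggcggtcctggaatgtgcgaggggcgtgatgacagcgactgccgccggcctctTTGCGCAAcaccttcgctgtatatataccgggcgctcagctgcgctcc

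Counting the base before the start as -1, *Sftpb* held CTCAAG at -100 to -95 and again at -15 to -10, with a FOXA match on the minus strand at -88 to -82. *Sftpa1* held CTCAAG at -166 to -161 and TATAAA at -30 to -25. *Lamp3* held TGTTTNC at -162 to -156 and at -92 to -86, and *Slc34a2* held TTGCGCAA, which reads the same on both strands, at -48 to -41. No match to these letters was present in the windows of *Abca3* and *Lpcat1*. The *Abca3* window was chr17:24351773-24352022, so it ran past the gene start given above (24351921) and lay partly inside the gene. Across 32851 promoter windows of the same length, CTCAAG was present in 13.3%, TTGCNNAA in 9.56%, TGTTTNC in 17.8% and TATAAA in 12.4%, so each match is a description of the sequence and not of binding.

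Libraries held 29317215 to 32993621 counted reads in trachea and 9811503 to 13208897 in lung, so transcripts of low abundance had less counting error in trachea. The single markers named next were highest where the labels put them. *Scgb1a1*, the main club cell secretory protein, was highest in airway CD24lo cells, *Foxj1*, the regulator of motile cilia, in CD24hi cells (626 ± 62.5 RPKM, SD, n = 3), and *Krt5* in BSCs. Of 8 club cell markers, 8 were higher in CD24lo than in CD24hi cells (edgeR's test, adjusted p under 0.05), as were 27.2% of all genes. Against tracheal non-basal cells the list was divided, with 4 higher and 2 lower in CD24lo cells. There 27.8% of all genes were higher and 53.1% were called in either direction. The alveolar gate also held *Ager*, a type 1 cell marker, at 1139.7 ± 7.16 RPKM (SD, n = 3). Of 11 type 1 cell markers, 7 were higher and 2 lower in alveolar than in airway CD24lo cells, against 24.2% of all genes in each direction. Lower were *Hopx*, by -1.26 on the log2 scale (SE 0.15), and *Clic5*, by -0.72 (SE 0.11). The part of type 1 cells in the alveolar gate was not tested. The EpCAM-negative gate held *Epcam* at 1.76 ± 0.110 RPKM (SD, n = 3), against 107 ± 3.81 RPKM (SD, n = 3) in alveolar cells. In trachea, summed club cell markers were at 15753 to 18456 CPM in BSCs (81113 to 86908 CPM in non-basal cells). Summed basal cell markers there were at 2330 to 3036 CPM in non-basal cells (9937 to 10777 CPM in BSCs). The part of each tracheal population in the other was not tested. Markers of other cell types were also present in the epithelial lung gates. Summed endothelial markers reached 465 to 936 CPM in airway CD24lo, 202 to 649 CPM in CD24hi and 150 to 296 CPM in alveolar cells, against 525 to 833 CPM in EpCAM-negative cells, summed fibroblast markers 694 to 1135 CPM in alveolar cells (26906 to 28381 CPM in EpCAM-negative cells), and summed basal cell markers 363 to 589 CPM in CD24lo cells (9937 to 10777 CPM in BSCs).

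The 10 genes together took 17.8% to 19.4% of all counted reads in the alveolar libraries. This share was 1.05% to 1.30% in airway CD24lo cells, 0.315% to 0.472% in CD24hi cells, 0.0873% to 0.133% in EpCAM-negative cells, 0.197% to 0.210% in non-basal cells and 0.0373% to 0.0446% in BSCs. No population overlapped another. In bulk RNA a lower value can come from fewer cells that express a gene or from less RNA of it per cell, and these cannot be told apart.

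In alveolar cells the surfactant proteins were among the most abundant of all transcripts. Levels are given as RPKM, read counts divided by gene length and by TMM-scaled library size, since only values per length can be compared between genes. *Sftpc* ranked 1 among all genes, with 150136, 149929 and 168632 RPKM in mice 4, 5 and 6. *Sftpb* ranked 3 (14086, 12449 and 13248 RPKM), *Sftpa1* ranked 5 (10259, 9431 and 10515 RPKM) and *Sftpd* ranked 10 (4759, 4460 and 4980 RPKM). The processing genes were lower and varied little between mice: *Slc34a2* stood at 2952 ± 229 RPKM, *Napsa* at 1869 ± 138, *Lamp3* at 1207 ± 34.5, *Ctsh* at 726 ± 19.6, *Lpcat1* at 725 ± 58.6 and *Abca3* at 373 ± 16.0 (all SD, n = 3). The gene lengths are those of the files, and for some genes they were shorter than all annotated exons together (1326 against 2417 bases for *Sftpd*, 1605 against 4632 for *Lpcat1*, 1623 against 4499 for *Ctsh*), so the order of genes rests on that choice while a comparison of 1 gene between groups does not.

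**Figure D1:**
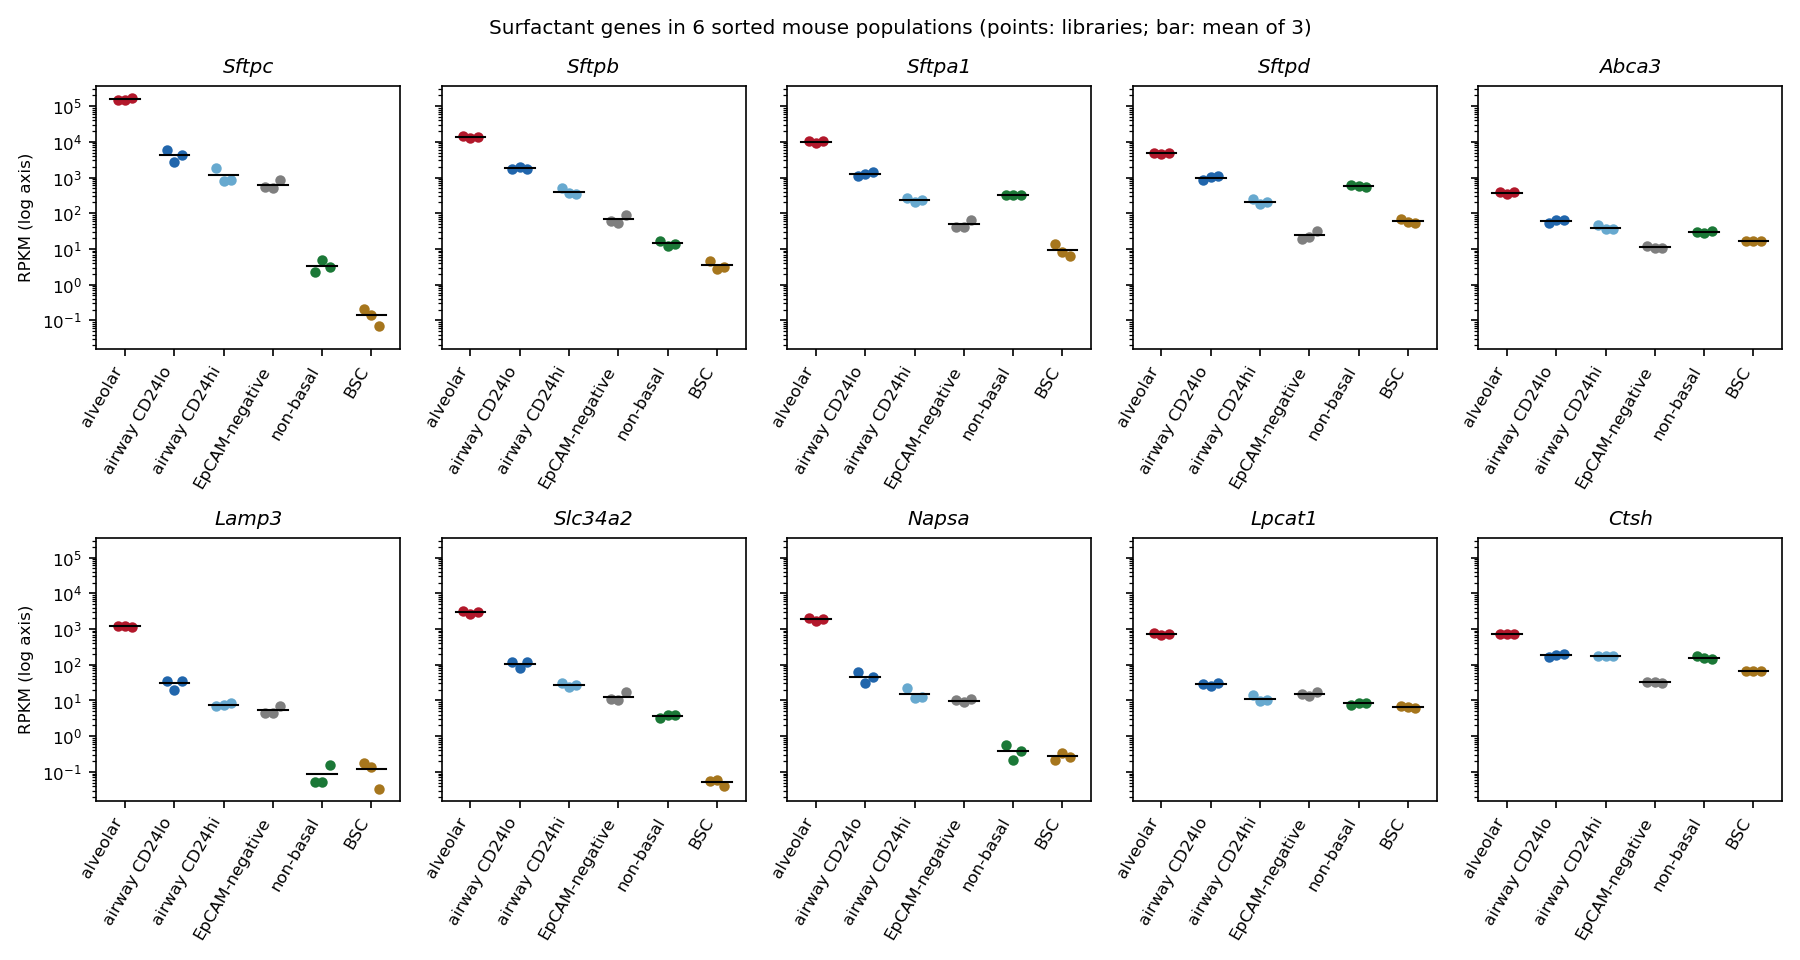
Level of each of the 10 genes in RPKM on a log axis, by population, with 1 point per library and a bar at the mean of 3. The alveolar libraries lie above all others for every gene. The span over the populations is wide for *Sftpc*, *Slc34a2*, *Lamp3* and *Napsa*, which are lowest in trachea. It is narrow for *Ctsh* and *Abca3*, which are lowest in EpCAM-negative cells.

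Each of the 10 genes was higher in alveolar cells than in each of the other 5 populations (edgeR's quasi-likelihood test, adjusted p under 0.05 by Benjamini-Hochberg over 17989 genes). For these genes no alveolar library overlapped any other group, and the share of all genes without such overlap was not counted. These comparisons called large parts of the transcriptome. Genes higher in alveolar cells made up 24.2% of all tested against airway CD24lo cells (48.4% called in either direction), 31.4% against CD24hi cells (61.9% in either direction), 29.2% against EpCAM-negative cells (61.9%), 32.5% against non-basal cells (64%) and 35.6% against BSCs (66.1%). The median log2 fold change of the 10 genes was 3.83, 5.73, 7.62, 8.04 and 10.99 in that order, beside medians of -0.03 to 0.09 for all genes. The 5 comparisons share the alveolar libraries.

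The hydrophobic proteins fell away from the alveolar gate at unequal rates. *Sftpc*, which encodes SP-C and is the defining type 2 cell transcript, stood at 5709, 2697 and 4243 RPKM in the airway CD24lo libraries of mice 4, 5 and 6, at 1830, 823 and 855 RPKM in CD24hi cells and at 555, 495 and 858 RPKM in EpCAM-negative cells. It was still the gene of rank 11 in CD24lo cells and of rank 58 in EpCAM-negative cells. The last pair of groups overlapped, although the means differed by 0.88 on the log2 scale (SE 0.33, adjusted p = 0.0232 by edgeR's test). In trachea it was near the limit of detection, with 54, 109 and 76 reads in the non-basal libraries and 6, 4 and 2 reads in the BSC libraries.

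*Sftpb* encodes SP-B, without which lamellar bodies do not form properly. It was at 1707, 2033 and 1751 RPKM in airway CD24lo cells, at 517, 359 and 336 RPKM in CD24hi cells and at 61.4, 53.2 and 87.8 RPKM in EpCAM-negative cells. In trachea the 3 non-basal libraries held 17.1, 12.2 and 14.2 RPKM and the BSC libraries 4.49, 2.83 and 3.07 RPKM. No 2 neighbouring populations overlapped in this order, and each step passed the test. From alveolar to CD24lo cells the log2 fold change of *Sftpb* was 2.86 (SE 0.22, adjusted p = 9.04e-09 by edgeR's test), against 5.21 (SE 0.39, adjusted p = 4.47e-09) for *Sftpc*.

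The collectins had a different order of populations from the hydrophobic proteins, with the tracheal non-basal cells well above the EpCAM-negative lung cells. *Sftpd*, which encodes SP-D, stood at 843, 1041 and 1116 RPKM in airway CD24lo cells and at 633, 572 and 533 RPKM in tracheal non-basal cells, above the 253, 182 and 203 RPKM of airway CD24hi cells. BSCs followed with 71.0, 57.1 and 52.5 RPKM, and EpCAM-negative cells were lowest with 19.0, 21.2 and 31.4 RPKM. All 5 steps in this order passed the test and none of the neighbours overlapped. In BSCs *Sftpd* was the most abundant of the 4 surfactant protein transcripts and of rank 835 among all genes. The part of non-basal cells in the BSC levels of the collectins was not tested.

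*Sftpa1*, which encodes SP-A, was at 1123, 1235 and 1413 RPKM in airway CD24lo cells, at 329.8, 329.5 and 331.3 RPKM in tracheal non-basal cells and at 263, 202 and 229 RPKM in CD24hi cells. The non-basal and CD24hi libraries did not overlap, but their difference missed the threshold (log2 fold change 0.51, SE 0.22, adjusted p = 0.0507 by edgeR's test). EpCAM-negative cells held 40.4, 40.9 and 64.3 RPKM and BSCs 13.4, 8.25 and 6.36 RPKM. In trachea *Sftpa1* was 5.14 higher in non-basal cells than in BSCs on the log2 scale (SE 0.27, adjusted p = 1.02e-10), and *Sftpd* was 3.27 higher (SE 0.19, adjusted p = 3.97e-10), both by edgeR's test.

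The make-up of the surfactant protein transcripts differed accordingly, as a description chosen after the levels were seen. Of the summed RPKM of *Sftpc*, *Sftpb*, *Sftpa1* and *Sftpd*, the 2 collectins made up 8.04% ± 0.297 (SD, n = 3) in alveolar cells and 9.39% ± 0.718 (SD, n = 3) in EpCAM-negative cells. They made up 27.7% ± 6.01 (SD, n = 3) in airway CD24lo cells and 23.1% ± 4.49 (SD, n = 3) in CD24hi cells. In trachea the collectins were nearly the whole of it, with 98.1% ± 0.0708 (SD, n = 3) in non-basal cells and 95.1% ± 0.489 (SD, n = 3) in BSCs. The balance between the collectins shifted as well: the ratio of *Sftpa1* to *Sftpd* was 2.13 ± 0.0246 in alveolar cells, 2.03 ± 0.0996 in EpCAM-negative cells, 1.26 ± 0.0735 in CD24lo cells, 1.10 ± 0.0473 in CD24hi cells, 0.573 ± 0.0501 in non-basal cells and 0.152 ± 0.0348 in BSCs (all SD, n = 3).

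**Figure D2:**
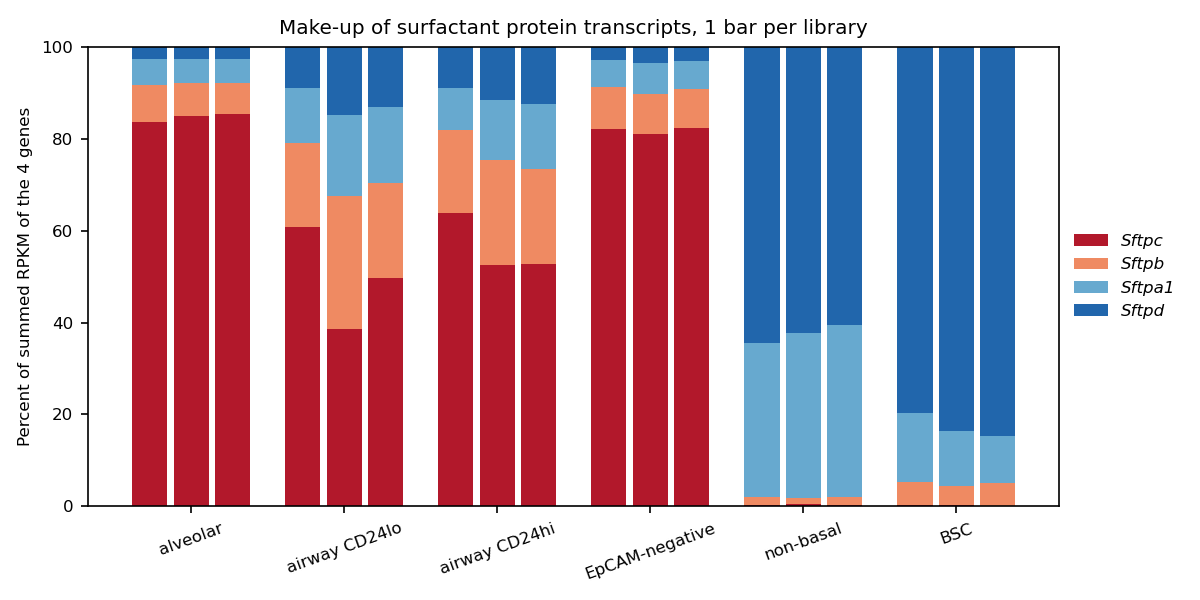
Share of each of the 4 surfactant protein genes in their summed RPKM, in percent, with 1 stacked bar per library. *Sftpc* fills most of the bar in alveolar (84.8% on average) and EpCAM-negative cells (81.9%) and is hardly visible in the tracheal populations, where *Sftpd* is the largest part.

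Among the lamellar body genes, *Lamp3* and *Abca3* lay at opposite ends. *Lamp3* encodes DC-LAMP, a lysosomal membrane protein of mature lamellar bodies. Its level was 35.7, 20.1 and 34.7 RPKM in airway CD24lo cells, 6.89, 7.25 and 8.61 RPKM in CD24hi cells and 4.52, 4.47 and 7.11 RPKM in EpCAM-negative cells, of which the last pair overlapped and missed the threshold (log2 fold change 0.50, SE 0.27, adjusted p = 0.110 by edgeR's test). Only 5, 5 and 16 reads were counted in the non-basal libraries and 21, 17 and 4 in the BSC libraries.

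*Abca3*, the phospholipid pump of the lamellar body membrane, was detected at above 10 RPKM in every library. It stood at 52.7, 63.4 and 63.0 RPKM in airway CD24lo cells, 45.7, 36.0 and 37.3 RPKM in CD24hi cells and 29.2, 28.1 and 30.9 RPKM in non-basal cells. BSCs held 17.1, 17.0 and 16.6 RPKM and EpCAM-negative cells 11.9, 10.8 and 10.9 RPKM, and each step of this order passed the test with no overlap. Its alveolar level exceeded that of EpCAM-negative cells by 5.06 on the log2 scale (SE 0.12, adjusted p = 8.65e-16 by edgeR's test), and that of CD24lo cells by 2.64 (SE 0.11, adjusted p = 2.38e-12).

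*Slc34a2* encodes the sodium-phosphate cotransporter NaPi-IIb, which takes up the phosphate left by surfactant breakdown. It was at 120, 83.1 and 116 RPKM in airway CD24lo cells, 30.6, 24.6 and 27.2 RPKM in CD24hi cells and 10.8, 10.4 and 17.5 RPKM in EpCAM-negative cells. In trachea it split the 2 populations: the non-basal libraries held 3.30, 3.95 and 3.86 RPKM, and the BSC libraries only 8, 9 and 6 reads. The difference between non-basal cells and BSCs was 6.12 on the log2 scale (SE 0.28, adjusted p = 3.16e-11 by edgeR's test).

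The proteases that trim the precursors of SP-B and SP-C also lay far apart. *Napsa*, the aspartic protease napsin A, had the same order of lung populations as *Lamp3*, with 63.4, 31.5 and 44.1 RPKM in airway CD24lo cells, 22.3, 11.4 and 12.3 RPKM in CD24hi cells and 10.04, 8.99 and 10.8 RPKM in EpCAM-negative cells. Its tracheal counts were 25, 9 and 18 reads in non-basal cells and 11, 18 and 14 reads in BSCs, and these groups overlapped. *Ctsh*, the cysteine protease cathepsin H of lysosomes and lamellar bodies, was the most evenly spread of the 10 genes.

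*Ctsh* stood at 167, 189 and 202 RPKM in airway CD24lo cells, 180, 173 and 181 RPKM in CD24hi cells and 170, 153 and 142 RPKM in non-basal cells. These 3 populations lay close together: the step from CD24lo to CD24hi cells was 0.06 on the log2 scale (SE 0.09, adjusted p = 0.576 by edgeR's test), and that from CD24hi to non-basal cells 0.20 (SE 0.09, adjusted p = 0.0568). BSCs held 67.5, 68.5 and 65.2 RPKM and EpCAM-negative cells 32.0, 33.9 and 31.3 RPKM, both below all 3.

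*Lpcat1* encodes the acyltransferase that remodels phosphatidylcholine to its disaturated form. After the alveolar libraries (785, 668 and 723 RPKM) it fell to 29.5, 25.2 and 31.8 RPKM in airway CD24lo cells, 15.2, 13.3 and 16.9 RPKM in EpCAM-negative cells and 13.9, 9.51 and 10.1 RPKM in CD24hi cells. It was the only one of the 10 genes with a mean higher in EpCAM-negative than in CD24hi cells, by 0.44 on the log2 scale (SE 0.14, adjusted p = 0.00870 by edgeR's test), although those groups overlapped. The tracheal populations held 7.64, 8.64 and 8.72 RPKM (non-basal) and 6.89, 6.73 and 6.26 RPKM (BSCs).

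The 4 lung populations came from the same 3 mice, so each gate could be set against the alveolar cells of its own mouse. In airway CD24lo cells the 10 genes fell into a low and a high range of this percentage of the alveolar CPM. *Sftpc* stood at 3.80%, 1.799% and 2.52% in mice 4, 5 and 6, and *Lamp3* (2.88%, 1.66% and 2.97%), *Napsa* (3.19%, 1.83% and 2.33%), *Slc34a2* (3.84%, 3.09% and 3.83%) and *Lpcat1* (3.76%, 3.77% and 4.39%) lay near it. *Sftpa1* (10.95%, 13.1% and 13.4%), *Sftpb* (12.1%, 16.3% and 13.2%), *Abca3* (13.8%, 17.9% and 16.5%), *Sftpd* (17.7%, 23.3% and 22.4%) and *Ctsh* (22.8%, 26.8% and 27.2%) were several times higher in every mouse. The library of mouse 4 was highest for *Sftpc* and *Napsa* and lowest for each gene of the higher range.

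Type 2 cell markers outside the 10 genes also differed among themselves in this percentage. Of the 9 such markers with reads in alveolar cells (*Lyz1*, *Etv5*, *Il33*, *Cxcl15*, *Chil1*, *S100g*, *Hc*, *Egfl6* and *Lrrk2*; *Dlk1* was near 0 there), the median over mice in airway CD24lo cells ran from 1.72% for *Lyz1*, a lysozyme, to 16.8% for *Lrrk2*, with a middle value of 3.11%. *Sftpd* and *Ctsh* were the 2 surfactant genes above every marker in each of the 3 mice. By this median *Chil1* (10.4%), *Cxcl15* (9.66%) and *S100g* (6.23%) lay between the low and the high range of the 10 genes. The summed level of all 10 markers was 26603 to 31227 CPM in alveolar cells and 1916 to 2291 CPM in CD24lo cells, and the part of type 2 cells in the CD24lo values was not tested.

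**Figure D3:**
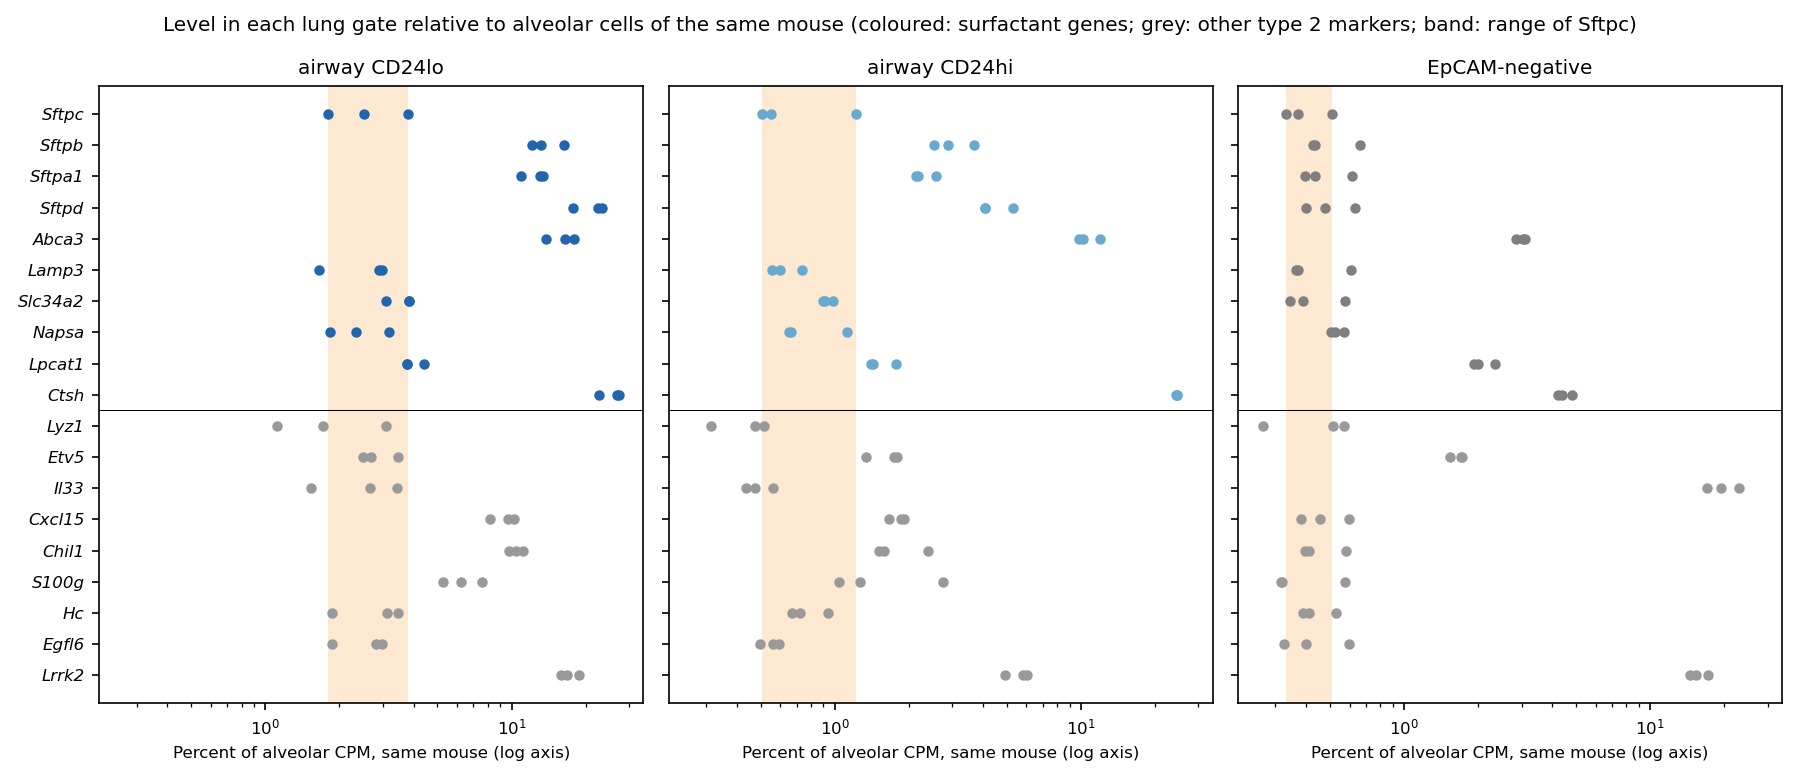
Level in each lung gate as a percentage of the alveolar CPM of the same mouse, on a log axis, with 1 point per mouse; coloured points are the 10 surfactant genes, grey points the 9 type 2 cell markers, and the band the range of *Sftpc*. In the airway CD24lo panel *Napsa* sits in the band and *Lamp3* in it or, in 1 mouse, just below, while *Sftpd* and *Ctsh* lie between 17.7% and 27.2%, and in the EpCAM-negative panel most surfactant genes sit in or next to the band.

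The ratio of each gene to *Sftpc* within a library describes the same split without reference to the scaling of libraries. In airway CD24lo cells this ratio exceeded that of alveolar cells by 2.42 on the log2 scale for *Sftpb*, 2.27 for *Sftpa1*, 3.02 for *Sftpd*, 2.63 for *Abca3* and 3.30 for *Ctsh*, with no overlap between the libraries. For *Lamp3* it differed by -0.09 and for *Napsa* by -0.11, and the libraries overlapped. *Slc34a2* and *Lpcat1* lay between, at 0.47 with no overlap and at 0.62 with overlap. Each of the 5 higher ratios and that of *Slc34a2* had p = 0.1 in an exact two-sided permutation test, the smallest that 3 against 3 libraries can give, and 0.15 after adjustment over 27 such tests, while *Lamp3* had p = 0.6, *Napsa* p = 0.4 and *Lpcat1* p = 0.2 in the same exact test. The test treated the libraries as independent and did not use their pairing by mouse. With that number of mice it could not have reached 0.05.

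EpCAM-negative cells showed another pattern. There 7 of the surfactant genes kept nearly the proportions of alveolar cells, at 0.369%, 0.330% and 0.509% of the alveolar CPM in mice 4, 5 and 6 for *Sftpc*, and at 0.344% to 0.663% over the 3 mice for *Sftpb*, *Sftpa1*, *Sftpd*, *Lamp3*, *Slc34a2* and *Napsa*. The ratio to *Sftpc* still exceeded that of alveolar cells by 0.33 on the log2 scale for *Sftpb*, 0.25 for *Sftpa1* and 0.32 for *Sftpd*. The libraries did not overlap for these genes, each with p = 0.1 in the exact permutation test (0.15 adjusted). For *Lamp3*, *Slc34a2* and *Napsa* the libraries overlapped. Mouse 6 was highest for each of the 7. *Lpcat1* (1.93%, 2.00% and 2.33%), *Abca3* (3.10%, 3.04% and 2.85%) and *Ctsh* (4.36%, 4.82% and 4.22%) stood above them in every mouse. Among the 9 type 2 cell markers the median over mice was 0.320% at the lowest, for *S100g*, and 0.456% in the middle, while *Il33*, an alarmin that stromal cells also make, reached 19.3% and *Lrrk2* 15.4%. The 4 epithelial markers *Epcam*, *Cdh1*, *Krt8* and *Krt18* summed to 31.2 to 37.5 CPM in this gate, against 1131 to 1222 CPM in alveolar cells, and the part of carried-over alveolar RNA or cells was not tested.

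In airway CD24hi cells *Sftpc* stood at 1.22%, 0.549% and 0.507% of the alveolar CPM and *Lamp3* at 0.556%, 0.598% and 0.736%. *Slc34a2* (0.982%, 0.914% and 0.893%), *Napsa* (1.12%, 0.662% and 0.650%) and *Lpcat1* (1.77%, 1.42% and 1.402%) lay at similar or slightly higher values. *Sftpa1* was at 2.57%, 2.15% and 2.18%, *Sftpb* at 3.67%, 2.88% and 2.53%, *Sftpd* at 5.31%, 4.08% and 4.07% and *Abca3* at 11.96%, 10.2% and 9.79%. *Ctsh* was almost the same in each mouse, at 24.5%, 24.6% and 24.4%. The middle value of the 9 type 2 cell markers was 1.27%.

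Between the airway gates, 9 of the 10 genes were higher in CD24lo than in CD24hi cells by edgeR's test (adjusted p under 0.05), where 27.2% of all genes tested were higher and 55% were called in either direction. Their median log2 fold change was 1.90, beside 0.06 for all genes. *Sftpa1* had the largest difference, 2.44 (SE 0.23, adjusted p = 9.82e-08), followed by *Sftpd* at 2.23 (SE 0.18, adjusted p = 1.53e-08) and *Sftpb* at 2.18 (SE 0.22, adjusted p = 1.69e-07). *Lamp3* differed by 1.99 (SE 0.27), *Slc34a2* by 1.95 (SE 0.19), *Sftpc* by 1.85 (SE 0.34), *Napsa* by 1.60 (SE 0.26) and *Lpcat1* by 1.37 (SE 0.14), all with no overlap. *Abca3* differed by 0.59 (SE 0.10, adjusted p = 9.89e-05). The exception was *Ctsh*, whose 0.06 did not pass and became -0.23 (adjusted p = 0.0215) when libraries were scaled by size alone. Summed type 2 cell markers were at 1916 to 2291 CPM in CD24lo and 384 to 479 CPM in CD24hi cells, and summed club cell markers at 258562 to 361266 and 41787 to 54318 CPM. The part of either cell type in these differences was not tested.

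Summed club cell markers were at 81113 to 86908 CPM in tracheal non-basal cells. This lay below the 258562 to 361266 CPM of airway CD24lo cells and above the 41787 to 54318 CPM of CD24hi cells. Set against the non-basal cells, the CD24lo cells were higher for all 10 genes by edgeR's test. In that comparison 27.8% of all genes were higher and 53.1% were called in either direction. The size of the difference ranged widely. *Sftpc* differed by 10.29 on the log2 scale (SE 0.49, adjusted p = 3.13e-11), *Lamp3* by 8.40 (SE 0.40), *Sftpb* by 6.98 (SE 0.27), *Napsa* by 6.85 (SE 0.35) and *Slc34a2* by 4.84 (SE 0.21). *Sftpa1* differed by 1.93 (SE 0.23, adjusted p = 2.06e-06), *Lpcat1* by 1.79 (SE 0.14), *Abca3* by 1.02 (SE 0.10) and *Sftpd* by 0.79 (SE 0.18, adjusted p = 0.00115). *Ctsh* differed by 0.26 (SE 0.09, adjusted p = 0.0204), but its groups overlapped and the call was lost without CD24lo replicate 3 (0.20, adjusted p = 0.0913), without non-basal replicate 3 (0.20, adjusted p = 0.108) or without non-basal replicate 2 (0.25, adjusted p = 0.0601).

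Within the trachea, 7 of the 10 genes were higher in non-basal cells than in BSCs of the same mice by edgeR's test, where 26.2% of all genes were higher and 48.2% were called in either direction. Beside *Slc34a2*, *Sftpa1* and *Sftpd*, *Sftpc* differed by 4.51 (SE 0.60, adjusted p = 7.93e-06), at the few reads given above, *Sftpb* by 2.07 (SE 0.23), *Ctsh* by 1.21 (SE 0.09) and *Abca3* by 0.80 (SE 0.10) on the log2 scale. *Napsa* (0.54, SE 0.48, adjusted p = 0.379) and *Lamp3* (-0.42, SE 0.57, adjusted p = 0.580) did not pass, at 25 reads or fewer in each library. *Lpcat1* just missed the threshold (0.33, SE 0.13, adjusted p = 0.0503) and passed it in a fit of only these 6 libraries, both without (0.34, adjusted p = 0.00806) and with the mouse as a replicate block (0.34, adjusted p = 0.00442). With library size alone its difference was -0.016.

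**Figure D4:**
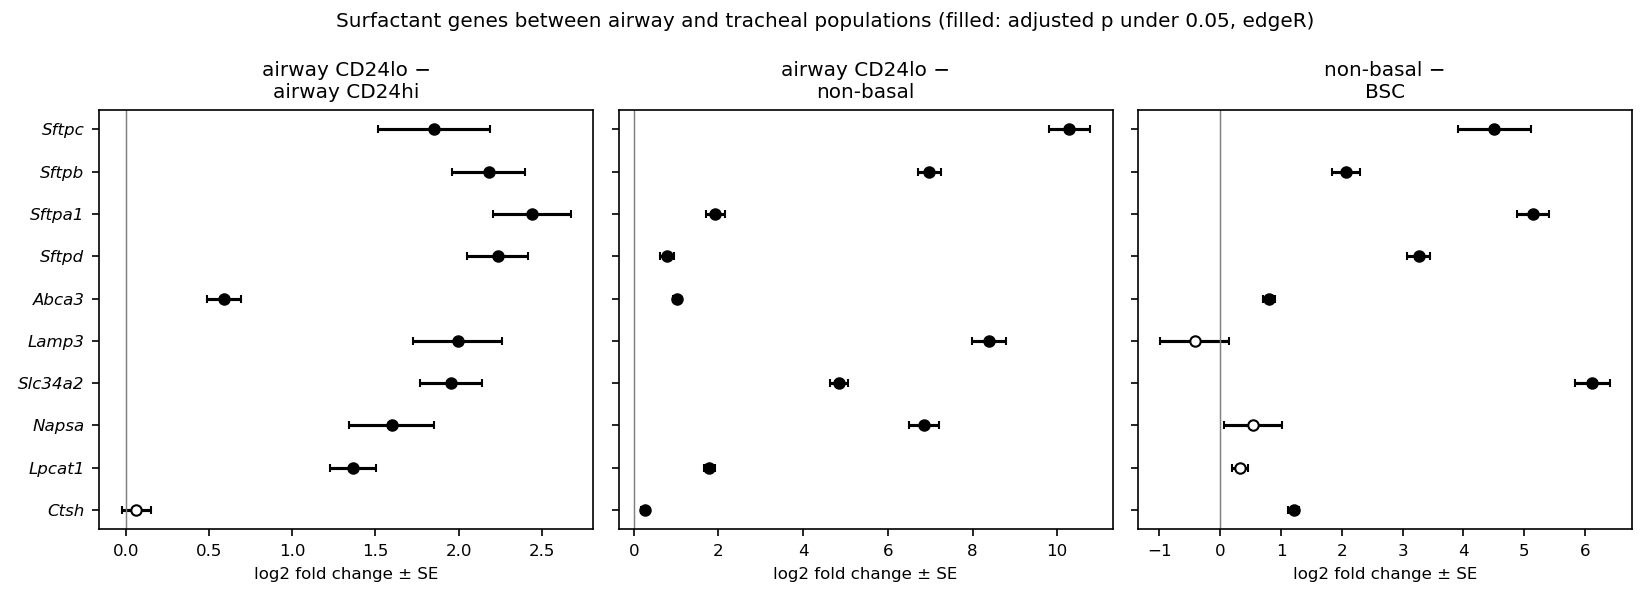
Log2 fold change with its SE for the 10 genes in 3 comparisons among airway and tracheal populations, each panel with its own range; filled points passed the test. The differences between airway CD24lo and non-basal cells run from 0.26 for *Ctsh* to 10.29 for *Sftpc*, while the open points in the tracheal panel are *Lamp3*, *Napsa* and *Lpcat1*.

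Other genes of the surfactant pathway were counted from lists of fatty acid supply, phospholipid synthesis, lamellar body traffic and transcription factors. Most genes of fatty acid supply were higher in alveolar cells. Of the 13 on that list, 11 were higher and 1 lower in alveolar than in airway CD24lo cells by edgeR's test, and their median difference was 2.99 on the log2 scale. Among all genes tested in this comparison, 24.2% were higher, 24.2% lower and 48.4% called in either direction, with a median of -0.03, and the next lists are read against the same shares. *Fabp5*, a fatty acid carrier, was 5.42 higher (SE 0.20), *Scd1*, a desaturase, 5.00 (SE 0.26) and *Elovl1*, an elongase of long chains, 4.27 (SE 0.17). *Elovl6*, which elongates palmitate, was the gene that was lower, by -3.05 (SE 0.26). The median was 3.05 against CD24hi cells, 3.04 against EpCAM-negative cells, 2.63 against non-basal cells and 2.48 against BSCs.

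The list of phosphatidylcholine and phosphatidylglycerol synthesis leaned to higher in alveolar than in airway CD24lo cells, with a small median difference. Of its 17 genes, 9 were higher and 2 lower in alveolar than in airway CD24lo cells, with a median of 0.37, against 24.2% higher and 24.2% lower over all genes. *Agpat2*, an acyltransferase of phosphatidic acid synthesis, was 1.99 higher (SE 0.11) and *Pgs1*, which makes the precursor of phosphatidylglycerol, 1.98 (SE 0.11), while *Pcyt1b*, an isoform of the enzyme that limits phosphatidylcholine synthesis, was lower by -4.89 (SE 0.27). Lamellar body genes likewise leaned to higher, with 15 of 23 higher and 2 lower (24.2% of all genes in each direction) and a small median of 0.42. The purinergic receptor *P2ry2* (1.89, SE 0.20), the adhesion receptor *Adgrf5* (1.42, SE 0.20) and *Rab27a* (1.27, SE 0.12), a small GTPase of secretory vesicles, had the largest rises by the naming rule, and *Anxa7* was lower by -0.50 (SE 0.09).

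Of 13 transcription factors of surfactant promoters, 7 were higher and 4 lower in alveolar than in airway CD24lo cells, with a median of 0.33, beside 24.2% of all genes in each direction. *Etv5* differed by 5.11 (SE 0.15), *Cebpa* by 1.69 (SE 0.12) and *Nkx2-1*, the lung and thyroid lineage factor, by 1.20 (SE 0.10). *Klf5* (-0.91, SE 0.14), *Foxa1* (-0.70, SE 0.10) and *Tead1* (-0.57, SE 0.12) were lower. *Nkx2-1* was present in every epithelial gate, at 191 ± 11.3 RPKM in alveolar cells, 82.7 ± 5.55 in airway CD24lo cells, 68.4 ± 6.04 in CD24hi cells, 41.3 ± 0.132 in non-basal cells and 50.5 ± 2.55 in BSCs, and was at 2.63 ± 0.493 RPKM in EpCAM-negative cells (all SD, n = 3). *Foxa2* was higher in non-basal cells than in BSCs, at 8.95 ± 0.525 RPKM in non-basal cells and 0.555 ± 0.0148 RPKM in BSCs (SD, n = 3), a log2 fold change of 4.00 (SE 0.11, adjusted p = 4.58e-13 by edgeR's test). Of these 13 factors 2 were higher and 7 lower in non-basal cells than in BSCs, where 26.2% of all genes were higher and 21.9% lower, and *Etv5* (-1.91, SE 0.16), *Tead1* (-0.57, SE 0.11) and *Cebpa* (-0.48, SE 0.11) were among the lower.

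**Figure D5:**
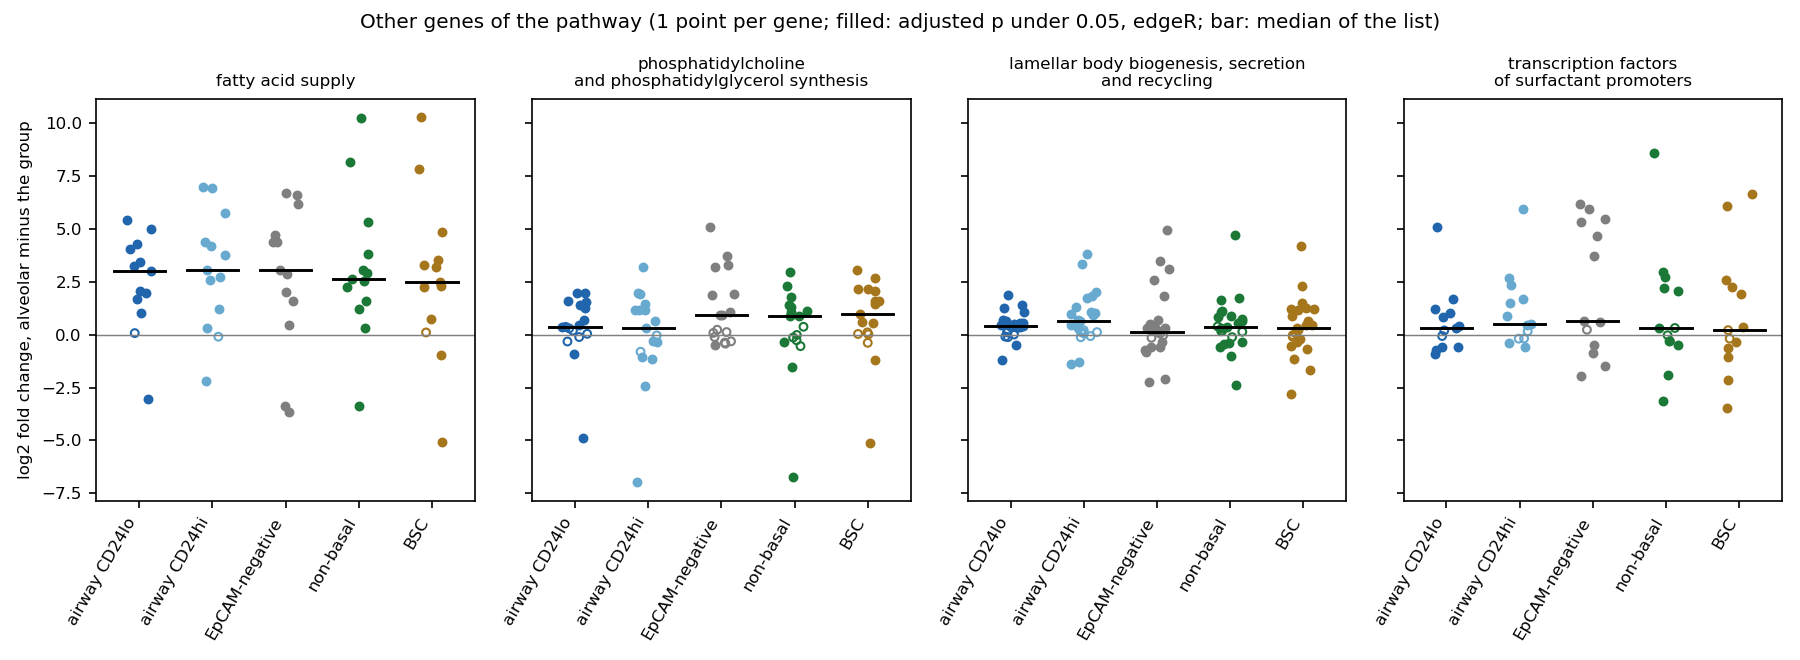
Log2 fold change of each gene of the 4 lists, alveolar minus each other population, with 1 point per gene (filled where it passed the test) and a bar at the median of the list. The median of the fatty acid supply list lies between 2.48 and 3.05 in all 5 comparisons, and those of the other lists lie within 1 of zero.

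The genes whose log2 CPM followed each surfactant gene most closely over the 18 libraries differed between the members, as a description by Pearson's r over points that share mice and populations. *Lamp3* and *Napsa* had each other among their 3 closest genes (r = 0.992), and *Bcan* was the closest to both (0.993 and 0.994). *Sftpb* lay closest to *Chil1* (0.992) and *Cxcl15* (0.991), *Slc34a2* to *Cxcl15* (0.989), and *Sftpc* to *Scarf1* (0.989), *Dpp4* (0.988) and *Hc* (0.985). *Sftpa1* was closest to *Syt7* (0.984), *Sftpd* to *Rassf3* (0.986) and the chloride channel gene *Cftr* (0.973), *Lpcat1* to *Fabp5* (0.993), *Abca3* to *Fdft1* (0.982) and *Ctsh* to *Ppa2* (0.981).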

How the data were processed

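Raw counts of single-end reads were deposited for 27179 Entrez genes, together with gene lengths. The authors obtained them with Rsubread (alignment to mm10) and featureCounts and did not normalize them. Strand settings are not given in the sources used here. Symbols and positions came from NCBI's GRCm38.p6 table (25275 identifiers matched). The series' design text speaks of small and large airways of lungs, whereas the labels give trachea and lung, and the labels were followed.

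Analysis was in R 4.3.3. A gene was kept if its CPM passed 0.2 in 3 or more libraries, which left 17989 genes. TMM factors and the quasi-likelihood test of edgeR 4.0.16 were applied to the 18 libraries together, and p-values were adjusted by Benjamini-Hochberg over every gene kept, with a threshold of 0.05. SE is the log2 fold change divided by the root of its F statistic. RPKM used the deposited gene lengths. Ratios to *Sftpc* were compared by exact permutation tests that did not use the pairing by mouse. The script was tested on simulated data. The members, lists and tests were chosen with earlier results of these data known. Named genes were the 10 members and, by a rule, up to 3 higher and 3 lower genes of each list that passed the test with an average over the libraries of 10 CPM or more, and the 3 genes of highest correlation. Alternatives were DESeq2 1.42.0, limma 3.58.1 (voom), RLE factors, library size alone, other filters, only the libraries compared, the mouse as a replicate block, and leaving out each library. The labels give the mouse of each library, so libraries of the same mouse are paired. Deviations of BSC and non-basal libraries of the same mouse correlated at 0.336, 0.117 and 0.218, and those of alveolar and airway CD24lo libraries at 0.033, -0.059 and 0.068. No replicate libraries agreed within counting noise (chi-square per degree of freedom at least 3.53). Other cell type lists served only to check labels.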

Additional observations from a re-analysis of the deposited data

How the results depend on the processing

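The counts of surfactant genes called higher moved by at most 1 in the 8 comparisons under the alternatives run: 7 or 8 for non-basal minus BSC, 9 or 10 for airway CD24lo minus non-basal, and no move in the other 6. Of the log2 fold changes of the 10 genes under an alternative, 1076 kept their direction and their side of the threshold. With direction kept, 7 passed it newly and 4 missed it newly, and 3 changed sign on either side of it. *Ctsh* between airway CD24lo and CD24hi cells became -0.23 with library size alone (adjusted p = 0.0215) and ranged from -0.0024 (without airway CD24lo replicate 3, adjusted p = 0.992) to 0.13 when each library was left out. *Lpcat1* between non-basal cells and BSCs became -0.016 with library size alone (adjusted p = 0.943). All 7 new calls with direction kept were of *Lpcat1*, at 0.32 to 0.39 and adjusted p of 0.00442 to 0.0496. Among them were the fit of only these 6 libraries (0.34, adjusted p = 0.00806) and the same with the replicate block (0.34, adjusted p = 0.00442). The 4 lost calls were *Ctsh* between airway CD24lo and non-basal cells, 0.27 (adjusted p = 0.0714) with only the 6 libraries compared and the leave-one-out values given above. The replicate block, fitted to only the libraries compared, changed no call beyond those of that fit without it. The cause of these changes was not tested. Library size alone shifted the transcriptome-wide median to -0.29 (alveolar minus CD24hi), -0.29 (alveolar minus BSC), -0.19 (alveolar minus EpCAM-negative), -0.21 (CD24lo minus CD24hi) and -0.31 (non-basal minus BSC). Genes higher and lower were then 3858 and 7285 instead of 5652 and 5479 for alveolar minus CD24hi, 4363 and 7924 instead of 6410 and 5485 for alveolar minus BSC, 3233 and 7002 instead of 4901 and 4998 for CD24lo minus CD24hi, and 2989 and 7780 instead of 4720 and 3948 for non-basal minus BSC. Tracheal counts of *Sftpc*, *Lamp3* and *Napsa*, and BSC counts of *Slc34a2*, limit the precision of their tracheal comparison.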
